A study of Mus musculus with 24 samples.

Results

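The 7 genes described here make cartilage proteins other than collagens, or the factor that directs their expression, and were taken by name from the 53946 genes counted. They are Acan (ENSMUSG00000030607), Hapln1 (ENSMUSG00000021613), Matn1 (ENSMUSG00000040533), Matn4 (ENSMUSG00000016995), Comp (ENSMUSG00000031849), Cnmd (ENSMUSG00000022025) and Sox9 (ENSMUSG00000000567). PolyA RNA of mouse ventral otocysts, the part of the embryonic inner ear with the cochlea, was sequenced at embryonic day 14.5 in 24 libraries of the labelled strain C57BL/6J x 129X1/SvJ. In translating ribosome affinity purification (TRAP), chosen cells make the ribosomal protein L10a fused to eGFP, and an antibody to GFP pulls down their ribosomes with the bound RNA. The tag was expressed in the Fgf20-Cre lineage, hence in cells that had expressed Fgf20-Cre and in their descendants, and the study asked which genes FGF20 regulates in progenitors of cochlear hair and supporting cells.

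The 16 TRAP libraries came from Fgf20+/- embryos (het, 8 libraries) and Fgf20-/- embryos (mut, 8 libraries), and the 8 pre-TRAP libraries from het and mut embryos, 4 of each. Experiments 1 and 2 contributed equally to every group. Every library pooled 3 to 7 embryos of 1 genotype, so the spread between libraries is between pools. No wild-type group was analysed here, and the het embryos lack 1 working copy of Fgf20. Pre-TRAP libraries are read as RNA taken ahead of the pull-down, although the labels give them the same extraction text. Embryo sex is not stated.

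Hyaline cartilage is a water-holding matrix in which aggrecan is bound to hyaluronan and laid over a collagen network, and chondrocytes make it under the direction of SOX9. The otic capsule, which surrounds the inner ear, begins as cartilage that condenses from mesenchyme around the otic epithelium. The cochlear progenitors themselves are epithelial cells, and Sox9 is the one gene of the 7 that is also well known in the otic epithelium.

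Total counts ran from 3.07e+07 to 5.34e+07 per library. Fgf20, the gene that the mutation targets, lay between 3.11 and 5.92 CPM (read counts normalised for sequencing depth with TMM factors) in TRAP het and between 0.825 and 3.02 CPM in TRAP mut. In pre-TRAP RNA it lay between 0.382 and 1.72 CPM in het and between 0.139 and 0.289 CPM in mut. Markers of the labelled tissue were present: the summed level of 14 prosensory and otic epithelium markers was 938 to 1442 CPM in TRAP and 241 to 372 CPM in pre-TRAP libraries. TRAP libraries 3 (het) and 4 (mut) of experiment 2 and 5 (het) and 6 (mut) of experiment 1 stood apart, 1 in each combination of genotype and experiment. The summed level of 8 cartilage collagens was 1573 to 6067 CPM in these 4 and 488 to 900 CPM in the other 12 TRAP libraries. Results that rest on them are given with and without them, a choice made after the data were seen. Cartilage collagens and mesenchyme markers had set the 4 apart, and collagen levels went with those of several of the 7 genes. Any fold change, interval, call or correlation without the 4, in any comparison, therefore describes the libraries left and supports no result.

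Promoter sequences were at hand for 5 of the 7 genes, from RefSeq (GRCm38.p6), and not for Comp and Sox9. Stretches of 100 bases are shown 5′ to 3′ for Acan, Matn1 and Hapln1, whose 3 pairs had the highest correlations in pre-TRAP RNA, and for Cnmd, which differed between the experiments. Capitals mark the motif ACAAT or its reverse complement ATTGT, a core that SOX proteins bind. The stretches for Acan (chr7:79053126-79053225, plus strand), Matn1 (chr4:130944285-130944384, plus strand) and Cnmd (chr14:79662184-79662283, minus strand) end at the base before the transcription start. That of Hapln1 (chr13:89540386-89540485, plus strand) runs from 250 to 151 bases before the start, where the match lies.
Acan: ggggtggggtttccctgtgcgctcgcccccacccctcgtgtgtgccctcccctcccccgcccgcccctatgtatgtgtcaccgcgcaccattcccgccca
Matn1: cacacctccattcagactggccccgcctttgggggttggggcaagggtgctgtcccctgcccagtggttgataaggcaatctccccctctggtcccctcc
Hapln1: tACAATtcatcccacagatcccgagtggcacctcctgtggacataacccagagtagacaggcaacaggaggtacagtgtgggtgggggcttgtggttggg
Cnmd: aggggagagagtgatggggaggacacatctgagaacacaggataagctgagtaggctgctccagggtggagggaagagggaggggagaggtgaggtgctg
The Hapln1 window was the one of the 5 genes' windows of 250 bases with this core, on either strand, while 27.7% of all 32851 RefSeq windows of that length held it. A second SOX motif, ACAAAG, which does not contain that core, was searched on both strands and was in 16.5% of all windows. The TATA box TATAAA, also on both strands, was in 12.4%. Neither was in a window of these 5 genes. G and C made up 74.4% of the Acan window and 62% of that of Matn1. They made up 54.4% for Hapln1, 54% for Cnmd, and 54.4% and 62.8% for the windows at the 2 starts listed for Matn4, against a median of 52.4% over all windows.

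The first comparison asked how the cartilage genes of TRAP RNA differ from those of pre-TRAP RNA. Hapln1, Matn1, Comp, Cnmd, Matn4 and Sox9 were lower in TRAP RNA, with log2 fold changes from -2.41 to -1.04. Acan, the core proteoglycan, was not called. Of the 4 libraries that stood apart, library 3 lay within its pre-TRAP range and libraries 5 and 6 above that range. In the other 12 TRAP libraries the log2 value of Acan was the lowest of the 7, at -3.17. All 7 passed the filter on low counts. Tests were edgeR's quasi-likelihood test with experiment as a covariate and Benjamini-Hochberg adjustment over 24242 genes, and a gene was called at an adjusted p under 0.05.

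Of all genes tested, 31.2% were called lower and 27.9% higher, so a call of lower was common, and 6 of the 7 genes were called lower. Their median log2 fold change was -1.70, against -0.01 over all genes tested. Without the 4 libraries the median of the 7 was -2.86, and 32.6% of all genes were called lower, as were all 7 here. In bulk RNA, fewer cells of a type and less RNA per cell cannot be told apart.

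Acan encodes aggrecan, the large proteoglycan that draws water into cartilage. In TRAP het its level ran from 10.8 to 263 CPM with a median of 17.4, and in TRAP mut from 9.98 to 334 CPM with a median of 14.6. The pre-TRAP het libraries held 168, 215, 154 and 73.4 CPM, and the pre-TRAP mut libraries 115, 184, 106 and 86.1 CPM. Library 3 lay within the pre-TRAP range at 152 CPM, and libraries 5 and 6 lay above every pre-TRAP library at 263 and 334 CPM. Library 4 stood between the groups at 56.4 CPM, and the other 12 TRAP libraries did not exceed 28.8 CPM. The log2 fold change of TRAP over pre-TRAP was -1.30 ± 0.58 (SE, 95% confidence interval -2.50 to -0.10), with an adjusted p of 0.0575 by edgeR. Leaving out library 3, 4, 5 or 6 alone gave -1.84, -1.41, -1.51 and -1.87, and edgeR then called Acan each time, with adjusted p of 0.00634, 0.0491, 0.0235 and 0.00176. These 4 held the highest Acan levels in TRAP RNA, so those calls follow from leaving them out and support no result. Acan was called in 8 of 32 alternative fits, those 4 among them. Without all 4 libraries the log2 fold change was -3.17 ± 0.18 (SE), a description of the 12 libraries left, which lay below every pre-TRAP library.

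Hapln1 encodes the link protein that locks aggrecan onto hyaluronan. Its level ran from 25.2 to 112 CPM in TRAP het, with a median of 33.4, and from 22.4 to 187 CPM in TRAP mut, with a median of 36.8. Pre-TRAP het libraries held 341, 328, 287 and 236 CPM and pre-TRAP mut libraries 243, 346, 232 and 224 CPM. The groups did not overlap, since all 16 TRAP libraries lay below the lowest pre-TRAP library. Hapln1 had a log2 fold change of -2.41 ± 0.30 (SE, edgeR adjusted p = 1.1e-07), and -3.07 ± 0.15 without the 4 libraries.

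Matn1 and Matn4 encode matrilins, adaptor proteins that link collagen fibrils with proteoglycans, and Matn1 is the form most closely tied to cartilage. Matn1 ran from 53 to 247 CPM in TRAP het, with a median of 71.6, and from 46.1 to 371 CPM in TRAP mut, with a median of 64.8. Pre-TRAP het libraries held 577, 564, 554 and 391.7 CPM of Matn1 and pre-TRAP mut libraries 450, 657, 470 and 465 CPM. Every TRAP library lay below every pre-TRAP library for Matn1, and the log2 fold change was -2.29 ± 0.29 (SE, edgeR adjusted p = 1.9e-07), or -2.94 ± 0.14 without the 4 libraries.

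Matn4 was the matrilin with the greater overlap. It ran from 3.39 to 30.3 CPM in TRAP het, with a median of 8.81, and from 3.17 to 21.5 CPM in TRAP mut, with a median of 11.1. Pre-TRAP het libraries held 42.1, 30.2, 13.3 and 34.2 CPM and pre-TRAP mut libraries 41.7, 42.5, 31.3 and 31.6 CPM. TRAP libraries 3, 4, 6 and 16 reached the lowest pre-TRAP library, which was library 21 (het) at 13.3 CPM. Matn4 had a log2 fold change of -1.61 ± 0.27 (SE, edgeR adjusted p = 8.6e-06), and -1.87 ± 0.22 without the 4 libraries.

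Comp encodes a pentameric matrix protein, a thrombospondin, that binds collagens of cartilage and tendon. It had few reads, 15 to 214 counts in TRAP libraries and 214 to 562 in pre-TRAP libraries, so its values carry more counting error than those of the other genes. Its level ran from 1.16 to 5.59 CPM in TRAP het, with a median of 1.42, and from 0.387 to 6.65 CPM in TRAP mut, with a median of 1.08. Pre-TRAP het libraries held 15.8, 9.66, 10.1 and 6.03 CPM and pre-TRAP mut libraries 7.76, 6.54, 9.55 and 7.03 CPM. One TRAP library, number 6, reached the pre-TRAP range. Comp had a log2 fold change of -2.17 ± 0.34 (SE, edgeR adjusted p = 3.7e-06), and -2.86 ± 0.22 without the 4 libraries.

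Cnmd encodes chondromodulin, a membrane protein whose released part inhibits the growth of blood vessels into cartilage. It ran from 71.1 to 362 CPM in TRAP het, with a median of 118.5, and from 64.4 to 422 CPM in TRAP mut, with a median of 182. Pre-TRAP het libraries held 309, 429, 966 and 365 CPM and pre-TRAP mut libraries 347, 794, 556 and 468 CPM. Libraries 5 and 6 lay within the pre-TRAP range and the other 14 TRAP libraries below it. For Cnmd the log2 fold change was -1.70 ± 0.20 (SE, edgeR adjusted p = 3.2e-08), and -2.004 ± 0.15 without the 4 libraries.

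Sox9 encodes the transcription factor that turns on Acan, Matn1 and Col2a1 in chondrocytes. It ran from 154 to 217 CPM in TRAP het, with a median of 172, and from 148 to 283 CPM in TRAP mut, with a median of 182. Pre-TRAP het libraries held 463, 415, 335 and 399 CPM and pre-TRAP mut libraries 436, 367, 333 and 361 CPM. The groups did not overlap, and libraries 3, 4, 5 and 6 held 189, 162, 172 and 213 CPM, within the range of 148 to 283 CPM of the other 12 TRAP libraries. For Sox9 the log2 fold change was -1.04 ± 0.10 (SE, edgeR adjusted p = 1.4e-09), and -1.03 ± 0.11 without the 4 libraries, the smallest of the 7 in both fits.

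**Figure D1:**
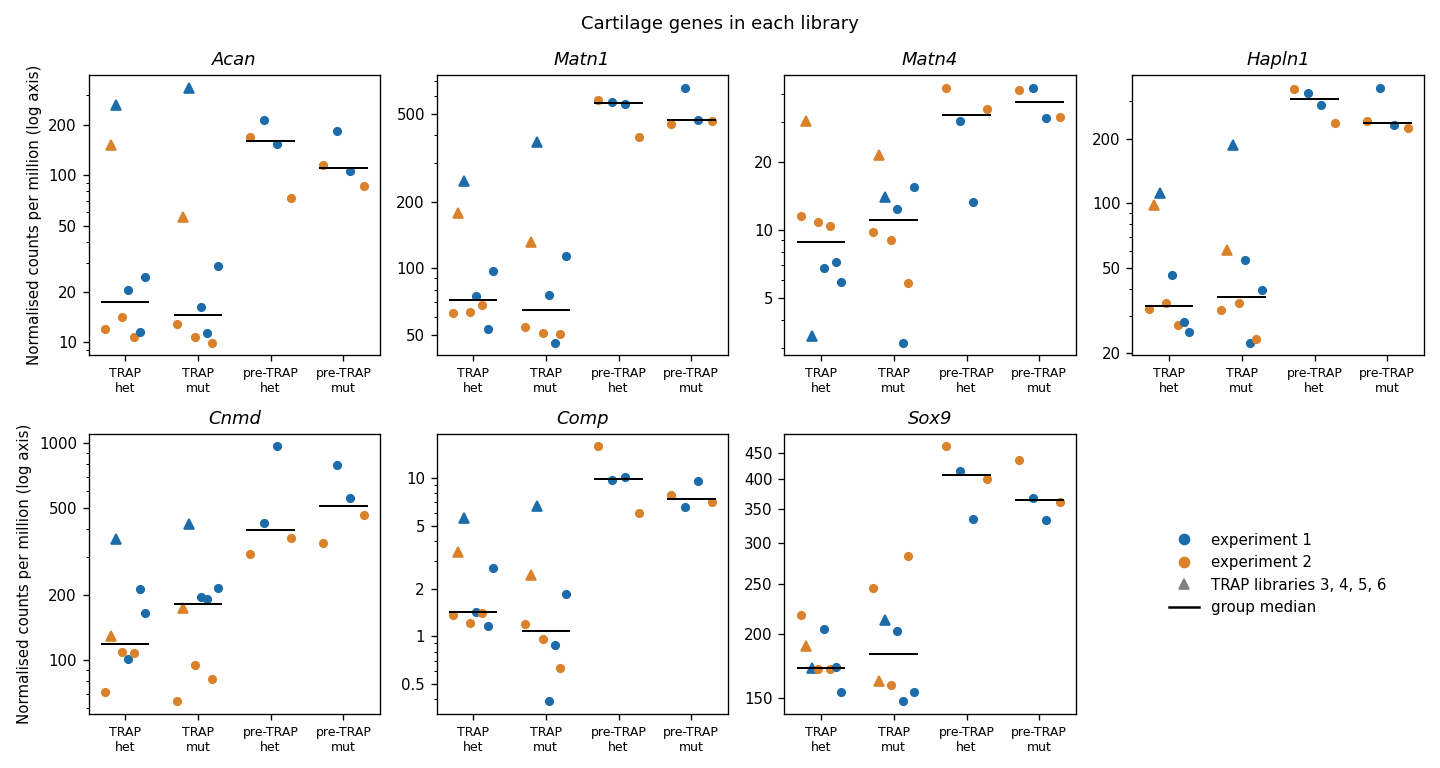
Level of each of the 7 genes in each library (vertical axis, normalised read counts in CPM, log axis) by group (horizontal axis). Points are libraries, coloured by experiment, triangles are TRAP libraries 3, 4, 5 and 6, and black bars are group medians. All 16 TRAP libraries lie below the pre-TRAP libraries for Matn1, Hapln1 and Sox9. For Acan, TRAP library 3 lies within the pre-TRAP range and libraries 5 and 6 lie above it.

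Counted over all genes tested, 8.32% had all 16 TRAP libraries below every pre-TRAP library, and so did 3 of the 7 cartilage genes (Matn1, Hapln1 and Sox9). With the 12 TRAP libraries alone 11.6% of genes did, and 6 of the 7, the exception being Matn4, for which library 16 lay above library 21. The difference was present in each experiment. In experiment 1 alone the log2 fold changes were -0.94 for Acan, -2.11 for Matn1, -1.84 for Matn4, -2.28 for Hapln1, -1.60 for Cnmd, -1.84 for Comp and -1.06 for Sox9. In experiment 2 alone they were -1.69 for Acan, -2.47 for Matn1, -1.41 for Matn4, -2.55 for Hapln1, -1.78 for Cnmd, -2.47 for Comp and -1.003 for Sox9. Experiment 2 alone called all 7 and experiment 1 alone all but Acan (edgeR adjusted p = 0.0474 and 0.369 for Acan). In the fit of both experiments 31.2% of all genes were called lower. The share in the fits of 1 experiment is not given here, so these counts are a description. The method by experiment interaction called none of the 7 (9 of all 24242 genes, or 0.0371%), with log2 differences from -0.87 for Acan to 0.33 for Matn4. Without the 4 libraries it was -0.12 for Acan and -0.21 for Matn4, the 7 ran from -0.31 for Comp to 0.07 for Sox9, and again none was called.

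**Figure D2:**
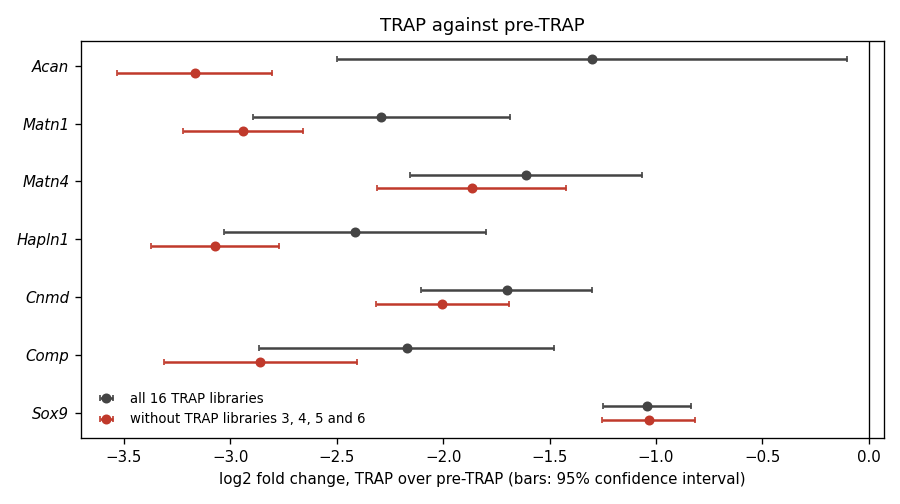
Log2 fold change of TRAP over pre-TRAP (horizontal axis) for each of the 7 genes (vertical axis), with all 16 TRAP libraries (grey) and without libraries 3, 4, 5 and 6 (red); bars are 95% confidence intervals. Acan moves from -1.30 to -3.17 when the 4 libraries are left out, and Sox9 stays near -1.03.

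Markers of other cell types differed between TRAP and pre-TRAP RNA too, where 31.2% of all genes tested were called lower and 27.9% higher. Of the 13 periotic mesenchyme markers tested, 11 were lower in TRAP, 1 was higher and 1 was not called, with a median log2 fold change of -2.10. Their summed level was 263 to 1224 CPM in TRAP and 852 to 1315 CPM in pre-TRAP, and the defining genes Pou3f4 and Tbx18 had log2 fold changes of -2.13 and -2.60. All 6 endothelial markers were lower, with a median of -2.24 and sums of 3.38 to 14.7 CPM in TRAP and 33.3 to 44.2 CPM in pre-TRAP. All 6 erythroid markers were lower, with a median of -3.27 and sums of 249 to 863 CPM and 3647 to 8443 CPM. Of 8 glia and Schwann cell markers 6 were lower and 2 higher, with sums of 129 to 211 CPM and 254 to 350 CPM. All 14 prosensory and otic epithelium markers were higher, with a median of 1.44, and all 10 neuron markers, with a median of 2.63 and sums of 2653 to 5125 CPM in TRAP and 517 to 820 CPM in pre-TRAP. No marker of these lists was at 0 in every library. The part of these cells in the cartilage result was not tested.

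Among cartilage genes beyond the 7, transcription factors and regulators of chondrocytes were called lower in TRAP in 11 of 11 tested. The median log2 fold change of these 11 was -2.36, and 31.2% of all genes were called lower. The named ones with the largest change were Prrx1 (-2.83 ± 0.20, SE), Scrg1 (-2.82 ± 0.20), Runx2 (-2.67 ± 0.23) and Runx3 (-2.48 ± 0.18). Prrx1 is a homeobox factor of limb and head mesenchyme, and the 2 Runx factors drive chondrocyte maturation and bone formation. Sox9, which acts upstream in chondrocytes, had a smaller log2 fold change (-1.04) than each of these, a difference that was not tested.

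Other genes of the cartilage matrix and its modification were called lower in 16 of 20, with 4 not called and a median of -2.01. Of all genes tested, 31.2% were called lower. Snorc, a small proteoglycan of chondrocytes, had a log2 fold change of -2.94 ± 0.19 (SE), Otor, a secreted protein named for the ear, -2.87 ± 0.21, Cytl1 -2.71 ± 0.20 and Susd5, which carries a hyaluronan-binding link module, -2.59 ± 0.26. The cartilage collagens were called in 4 of 7 tested, with a median of -0.87, and the 4 were the chains Col9a3 (-1.72 ± 0.25), Col9a1 (-1.46 ± 0.30) and Col9a2 (-1.18 ± 0.20) of type IX collagen, and Col27a1 (-0.78 ± 0.17). Without the 4 libraries all 7 collagens tested were called lower, with a median of -2.03, beside 32.6% of all genes. Summed collagens of libraries 3, 4, 5 and 6 lay partly above the pre-TRAP range of 1764 to 4085 CPM.

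Aggrecan's relatives and the hyaluronan genes were called lower in 8 of 11 and higher in 2, with a median of -1.60. The shares over all genes tested were 31.2% lower and 27.9% higher. Vcan, encoding versican, was lower by log2 -1.67 ± 0.44 (SE), Cd44, a hyaluronan receptor, by -2.18 ± 0.17 and the aggrecan-cleaving protease gene Adamts5 by -1.66 ± 0.20, while Has3, a hyaluronan synthase, was higher by 2.20 ± 0.29. Genes of chondrocyte hypertrophy and ossification were called lower in 8 of 10 and higher in 1, beside the same shares, with a median of -1.73. Those named were Pthlh (-1.83 ± 0.20, SE) and its receptor gene Pth1r (-1.63 ± 0.14), which delay hypertrophy, Sp7 (-1.09 ± 0.31), a bone factor, and Spp1, which encodes osteopontin and was higher in TRAP by 2.73 ± 0.14.

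The 4 libraries were compared with the other 12 TRAP libraries gene by gene, as a description without a test, since collagens and mesenchyme had set them apart. The median of the 4 was 16.7 times that of the 12 for Acan, 3.72 times for Comp and 3.37 times for Matn1. It was 3.27 times for Hapln1, 2.48 times for Cnmd, 1.88 times for Matn4 and 1.05 times for Sox9. All 4 lay above all 12 for Acan, Matn1 and Hapln1 (3 of 7), as they did for 268 of all 24242 genes, or 1.11%. The ratio thus differed widely from gene to gene.

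Set against the pre-TRAP median of each gene, library 6 held 248.5% for Acan, 94.2% for Cnmd, 76.9% for Comp, 72.5% for Matn1, 70.8% for Hapln1, 55.7% for Sox9 and 42.2% for Matn4. Library 5 held 195.4% for Acan and 10.3% for Matn4. Matn4 was thus at the low end of TRAP libraries in the library with the second highest Acan, while libraries 3 and 4 of experiment 2 held the most Matn4, at 30.3 and 21.5 CPM.

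**Figure D3:**
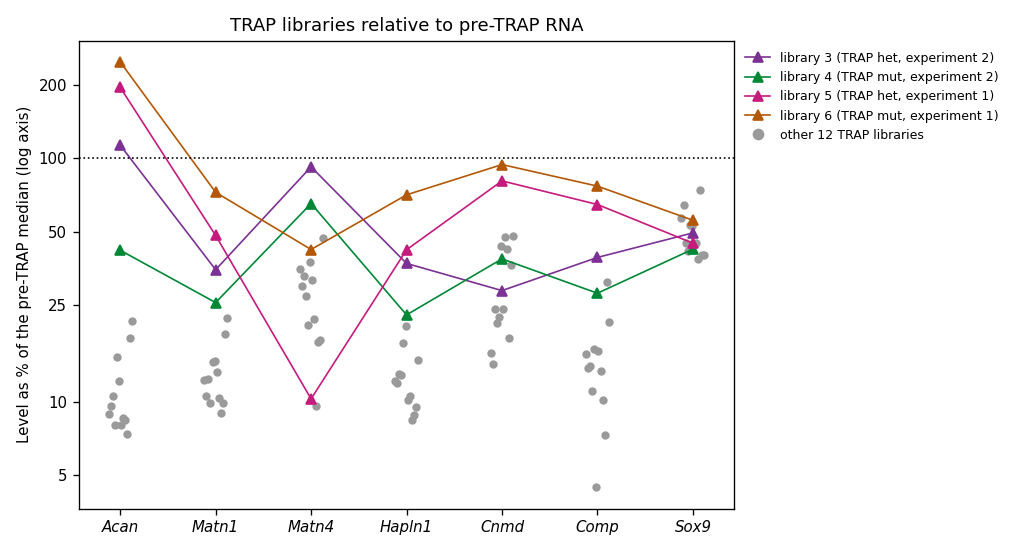
Level in each TRAP library as a percentage of the pre-TRAP median of the same gene (vertical axis, log axis; dotted line, 100%) for the 7 genes (horizontal axis). Lines join the values of libraries 3, 4, 5 and 6 and grey points are the other 12 TRAP libraries; Acan passes 100% in libraries 3, 5 and 6, and Matn4 falls to 10.3% in library 5.

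Libraries 3, 4, 5 and 6 were described in the same way for other lists. Collagens and mesenchyme had set the 4 apart, so their values restate that choice. All 4 lay above all 12 for 1.11% of all genes tested. The summed mesenchyme markers were 535 to 1224 CPM in the 4 and 263 to 486 CPM in the 12, and 4 of the 14 genes lay above all 12 in all 4. The same held for 5 of 8 cartilage collagens, 6 of 20 other cartilage matrix genes, 1 of 14 hyaluronan and aggrecan-family genes, 1 of 12 hypertrophy genes, 1 of 6 endothelial markers and 0 of 12 chondrogenic regulators. It held for 0 of 14 prosensory, 0 of 10 neuron, 0 of 8 glia and 0 of 6 erythroid markers. Among mesenchyme markers Tbx15, Twist2, Meox1 and Tcf21 had a TRAP median under 1 CPM. The part of mesenchyme in the level of the cartilage genes was not tested.

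The comparison of genotypes asked whether the cartilage genes depend on Fgf20. None of the 7 was called in either kind of RNA, and the interval of the difference was wide for Acan and narrow for Sox9. In TRAP RNA edgeR called 16 of 21577 genes (0.0742%), with 813 (3.77%) at an unadjusted p under 0.05, and 0 of the 7 reached either threshold. DESeq2 called 14 genes higher and 39 lower there, and none of the 6 cartilage genes for which it gave an adjusted p. In pre-TRAP RNA edgeR called 1 of 21954 genes (0.00455%), with 1048 (4.77%) at an unadjusted p under 0.05, and again 0 of the 7 reached either threshold. The median log2 difference of the 7 was 0.07 in TRAP and -0.11 in pre-TRAP, against -0.02 and -0.03 over all genes tested.

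In TRAP RNA the mean level of Acan was 63.6 ± 93.7 CPM in het and 60.1 ± 112 CPM in mut (SD, n = 8 each). Mut over het was -0.39 on the log2 scale (95% confidence interval -2.06 to 1.28), and without libraries 3, 4, 5 and 6 it was -0.09 (-0.53 to 0.35). The interval of Acan thus passed 1 log2 unit in both directions with all libraries and stayed within it without the 4. Since the 4 held the highest Acan levels in TRAP RNA, the narrower interval follows from leaving them out. It sets no bound on a genotype difference. For Sox9 the means were 181 ± 20.8 CPM in het and 196 ± 49.3 CPM in mut (SD, n = 8 each), a log2 difference of 0.09 (-0.18 to 0.36).

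For the other matrix genes the log2 fold change in TRAP was -0.02 (95% confidence interval -0.85 to 0.81) for Matn1, 0.22 (-0.52 to 0.96) for Matn4 and 0.07 (-0.78 to 0.93) for Hapln1. It was 0.13 (-0.38 to 0.64) for Cnmd and -0.33 (-1.29 to 0.62) for Comp. Values of mut and het libraries overlapped for every gene. Comp had the lowest unadjusted p without the 4 libraries, at a log2 fold change of -0.65 (-1.34 to 0.03) and an edgeR adjusted p of 0.932.

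The experiments gave different signs for 5 genes in TRAP RNA. In experiment 1 alone the log2 fold change was 0.36 for Acan, 0.39 for Matn1, 0.94 for Matn4, 0.56 for Hapln1 and 0.31 for Cnmd. In experiment 2 alone it was -1.08 for Acan, -0.39 for Matn1, -0.46 for Matn4, -0.36 for Hapln1 and -0.01 for Cnmd. Comp was at -0.12 and -0.50 and Sox9 at 0.03 and 0.18 in experiments 1 and 2, and none of these was called. All these values include libraries 3, 4, 5 and 6. In experiment 1 Acan was 334 CPM in library 6 (mut) and 263 CPM in library 5 (het). In experiment 2 it was 152 CPM in library 3 (het) and 56.4 CPM in library 4 (mut). Single experiments were not fitted without these libraries, and whether the genotype difference depends on experiment was not tested.

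In pre-TRAP RNA, with 4 against 4 libraries, mut over het on the log2 scale was -0.31 (95% confidence interval -0.85 to 0.23) for Acan, -0.04 (-0.38 to 0.31) for Matn1 and 0.35 (-0.21 to 0.91) for Matn4. It was -0.20 (-0.56 to 0.17) for Hapln1, 0.11 (-0.38 to 0.61) for Cnmd, -0.43 (-0.99 to 0.13) for Comp and -0.11 (-0.41 to 0.19) for Sox9. These intervals did not exceed 1 log2 unit in either direction for any of the 7. In experiments 1 and 2 alone the values were -0.34 and -0.25 for Acan, 0.03 and -0.06 for Matn1, 0.78 and -0.04 for Matn4, -0.07 and -0.29 for Hapln1, -0.03 and 0.29 for Cnmd, -0.28 and -0.54 for Comp, and -0.08 and -0.10 for Sox9.

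The genotype by method interaction asked whether mut and het differed more in one kind of RNA. It called 0 of 24242 genes with edgeR, of which 302 (1.25%) had an unadjusted p under 0.05, and 0 with DESeq2. For the 7 cartilage genes its log2 values ran from -0.17 for Matn4 to 0.31 for Hapln1, and the lowest unadjusted p was 0.316. Related lists were also counted for mut over het within TRAP RNA, where 0.0742% of all genes were called. The other cartilage matrix genes had 1 of 19 called, which was Epyc, higher in mut. The chondrogenic regulators had 0 of 10, collagens 0 of 7, hyaluronan and aggrecan-family genes 0 of 10 and hypertrophy genes 0 of 8. For mut over het in pre-TRAP RNA 0 were called in each of these lists, beside 0.00455% of all genes.

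Experiment 2 was compared with experiment 1 because each group holds both. Cnmd was lower in experiment 2 in both kinds of RNA, and no other gene of the 7 was called. In TRAP RNA 8.81% of 21577 genes were called lower in experiment 2, and in pre-TRAP RNA 4.97% of 21954. With total counts in place of TMM factors the median log2 difference of all genes went from 0.02 to 0.18 in TRAP and from 0.00 to 0.25 in pre-TRAP. The share of called genes that were higher then went from 61.6% to 85.9% in TRAP and from 66.2% to 91.2% in pre-TRAP.

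Cnmd in TRAP RNA ran from 101 to 422 CPM in experiment 1, with a median of 204, and from 64.4 to 173 CPM in experiment 2, with a median of 101. The ranges overlapped, as library 9 was the lowest of experiment 1 and fell among the libraries of experiment 2. The log2 fold change of experiment 2 over 1 was -1.11 ± 0.25 (SE, edgeR adjusted p = 0.00222), and -0.98 ± 0.18 without libraries 3, 4, 5 and 6 (edgeR adjusted p = 5.6e-04).

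In pre-TRAP RNA Cnmd held 429, 966, 794 and 556 CPM in experiment 1 and 309, 365, 347 and 468 CPM in experiment 2. Library 24 of experiment 2 lay above library 19 of experiment 1, and the other libraries were separated. The log2 fold change was -0.88 ± 0.23 (SE, edgeR adjusted p = 0.0212). The call was lost without library 17, 18 or 20 (edgeR adjusted p = 0.062, 0.0692 and 0.0823), with total counts in place of TMM factors (0.0515) and in the fit of all 24 libraries (0.0915).

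Acan had a log2 fold change of -1.38 ± 0.81 (SE, edgeR adjusted p = 0.241) between the experiments in TRAP RNA and -0.56 ± 0.25 (edgeR adjusted p = 0.158) in pre-TRAP RNA. Without libraries 3, 4, 5 and 6 the TRAP value was -0.65 ± 0.21 and was called (edgeR adjusted p = 0.03). These 4 held the highest Acan levels in TRAP RNA, so that call describes the 12 libraries left and supports no difference between experiments. The value was -2.33 and called without library 3 alone (edgeR adjusted p = 0.0239). In pre-TRAP RNA it was -0.81 and called without library 17 (edgeR adjusted p = 0.0462). Libraries 3 and 17 held the highest Acan of experiment 2 in their kind of RNA, so these calls follow from leaving them out. In the 12 TRAP libraries Acan ran from 11.4 to 28.8 CPM in experiment 1 and from 9.98 to 14.2 CPM in experiment 2.

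The remaining values in TRAP RNA were -0.66 ± 0.40 (SE) for Matn1, -0.53 ± 0.41 for Hapln1, -0.68 ± 0.46 for Comp, 0.78 ± 0.36 for Matn4 and 0.21 ± 0.13 for Sox9. In pre-TRAP RNA they were -0.25 ± 0.16 (SE) for Matn1, -0.19 ± 0.17 for Hapln1, 0.02 ± 0.26 for Comp, 0.41 ± 0.26 for Matn4 and 0.20 ± 0.14 for Sox9. None was called, with edgeR adjusted p of 0.126 or more in TRAP. Without libraries 3, 4, 5 and 6 the TRAP values were -0.37 ± 0.18 (SE) for Matn1, -0.19 ± 0.20 for Hapln1, -0.26 ± 0.33 for Comp, 0.23 ± 0.29 for Matn4 and 0.30 ± 0.15 for Sox9, and none was called. Among markers of other cells in TRAP RNA, 1 of 13 mesenchyme and 3 of 10 neuron markers and none of 6 endothelial or 6 erythroid markers were lower in experiment 2, beside 8.81% of all genes. Higher were 1 of 14 epithelial and 1 of 6 glia markers, beside 14.1% of all genes. In pre-TRAP RNA 1 of 14 epithelial and 1 of 10 neuron markers were lower, beside 4.97% of all genes, and none of these markers was higher, beside 9.74%.

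**Figure D4:**
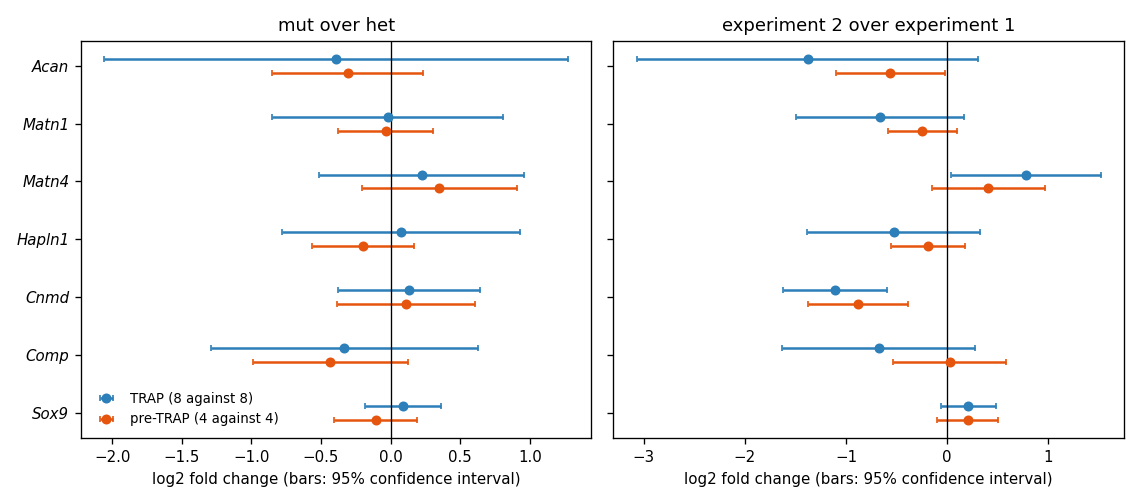
Log2 fold changes (horizontal axes) of the 7 genes (vertical axis) for mut over het (left) and experiment 2 over experiment 1 (right) in TRAP (blue) and pre-TRAP RNA (orange); bars are 95% confidence intervals. No gene was called between genotypes, and Cnmd was called between experiments, at -1.11 in TRAP and -0.88 in pre-TRAP.

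Correlations were computed between the 7 genes across libraries on log2 CPM. TRAP and pre-TRAP libraries form separate clusters and the 4 libraries a further one, so values are given within the 12 TRAP and within the 8 pre-TRAP libraries, 42 relations in all. Acan and Matn1 went together in the 12 TRAP libraries (Pearson r = 0.91, permutation adjusted p = 0.00294, raw p = 7e-05; Spearman rho = 0.85, permutation adjusted p = 0.0428, raw p = 0.00102). With the 2 libraries farthest from the median of Acan left out, r was 0.74. These values describe the 12 libraries left, since all 4 others lay above them for both genes. In all 16 TRAP libraries, as planned, r was 0.98 (permutation adjusted p = 0.00021), and there the 4 libraries weigh on it. In the 8 pre-TRAP libraries the same pair had r = 0.90 and rho = 0.86, with exact permutation raw p of 0.00372 and 0.0107.

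In the same 8 libraries r was 0.91 for Acan with Hapln1 and 0.89 for Matn1 with Hapln1, and all 3 pairs had an exact permutation adjusted p of 0.0706 on Pearson r. Without the 2 farthest libraries r was 0.91 for Acan with Matn1, 0.96 for Acan with Hapln1 and 0.94 for Matn1 with Hapln1. Their rho was 0.86 for Acan with Hapln1 and 0.81 for Matn1 with Hapln1, with exact permutation adjusted p of 0.105 and 0.131. In pre-TRAP RNA these 3 pairs had the highest r of the 21, while in the 12 TRAP libraries r was 0.45 for Acan with Hapln1 and 0.43 for Matn1 with Hapln1 (rho = 0.55 and 0.57, permutation adjusted p of 0.441 for both r). Higher there were Matn4 with Hapln1 at 0.63, Matn1 with Comp at 0.57, Acan with Comp at 0.57 and Matn1 with Matn4 at 0.49. Of the 42 relations that of Acan with Matn1 in TRAP passed, in a set of 12 libraries chosen after the data were seen.

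Cnmd and Sox9 had the lowest r in both kinds of RNA. It was -0.66 in the 12 TRAP libraries (rho = -0.65, permutation raw p = 0.0201 and 0.0257, adjusted p = 0.14 and 0.135) and -0.82 in the 8 pre-TRAP libraries (rho = -0.86, exact permutation raw p = 0.0131 and 0.0107, adjusted p = 0.11 and 0.105). Without the 2 farthest libraries r was -0.63 and -0.94. Neither passed this adjustment. The correlations had been planned over all 16 TRAP and the 8 pre-TRAP libraries, also 42 relations, and the adjustment depends on that set. In it Cnmd with Sox9 in pre-TRAP RNA passed on Pearson r (exact permutation adjusted p = 0.0425), as did Acan with Matn1 (0.0174), Acan with Hapln1 (0.0221) and Matn1 with Hapln1 (0.0257), and none of these 4 passed on rho (0.0562 or more). All values of a library share its scaling factor and its experiment, and Cnmd was itself lower in experiment 2. In the 12 TRAP libraries experiment 2 over 1 was -0.65 for Acan and -0.37 for Matn1 on the log2 scale. Permutations ran across both experiments, so a shared shift can enter these r, and its part was not tested.

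The genes whose level was most like that of each cartilage gene were ranked among 11887 by the smaller of 2 Pearson r, in the 16 TRAP and in the 8 pre-TRAP libraries. For Acan they were Col2a1, the main collagen of cartilage, at 0.98, Cspg4 at 0.97 and Rrbp1 at 0.97, for Matn1 Cspg4 at 0.91, Ganab at 0.91 and Acan at 0.90, and for Hapln1 Susd5 at 0.93, Cspg4 at 0.93 and Col11a1 at 0.92. The 4 libraries weigh on these values: within the 12 others r with Acan was 0.90 for Col2a1, 0.83 for Cspg4 and 0.69 for Rrbp1. There r with Matn1 was 0.84 for Cspg4, 0.45 for Ganab and 0.91 for Acan. With Hapln1 it was 0.76 for Susd5, 0.65 for Cspg4 and 0.67 for Col11a1. The ranks were not tested. For Comp they were Plec at 0.81, Col15a1 at 0.80 and Col11a2 at 0.76, and within the 12 others r with Comp was 0.61, -0.091 and 0.47. For Matn4 they were Adamts10 at 0.83, Ano6 at 0.83 and Hspa12b at 0.78. For Cnmd they were Acat1 at 0.96, Atp6ap1 at 0.94 and Blmh at 0.94, and for Sox9 Uba6 at 0.87 and Nucks1 at 0.83.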

How the data were processed

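The authors deposited 1 table of raw counts per gene and library, whole numbers without normalization. Per the submitters' processing notes, reads were aligned to GRCm38.p5 with STAR and DESeq2 was used. Not given in the sources used here are versions, annotation, counting tool and strand setting. Without a known strand setting, reads of overlapping genes could mix: Gm26633 (0 to 32 counts per library) overlaps Acan (308 to 10747), Rbpjl (2 to 119) overlaps Matn4 (86 to 2060) and Gm8546 (16 to 267) overlaps Hapln1 (608 to 16762). Gm51533 overlaps Comp.

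Symbols were given to 53274 of 53946 genes from a table of gene names. Levels are CPM with TMM factors (0.801 to 1.142), and are compared within a gene, not between genes, since no gene lengths were used. Counts were tested with edgeR 4.0.16 (glmQLFit and glmQLFTest, filterByExpr with a minimum count of 10), and limma 3.58.1 and DESeq2 1.42.0 were alternatives. The TRAP against pre-TRAP fit and the interactions took all 24 libraries, the others 16 or 8. Correlations used log2 of CPM plus 0.5 and 100000 permutations or exact enumeration. They had been planned over all 16 TRAP libraries. Scripts were tested on simulated data. The 68 replicate pairs differed by more than counting error (chi-square per degree of freedom of 23.8 or more). Members of each list named were those with the largest change among genes called in TRAP against pre-TRAP, up to 4 with a mean of 2 CPM or more, and Epyc was named outside that rule. The 7 genes and the lists were chosen with earlier results of these data known. For each of the 7 genes up to 3 genes of like level were named, and 1 gene is not reported here.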

Additional observations from a re-analysis of the deposited data

Results flagged for a closer look

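In each of the 28 combinations of gene and group, the highest and lowest library were checked with Dixon's ratio on log2 CPM, which by chance marks about 1 in 20 groups. It marked 3. Matn1 was low in pre-TRAP het library 23, at 391.7 CPM against 554 to 577 CPM in the other 3. Matn1 was high in pre-TRAP mut library 20, at 657 CPM against 450 to 470 CPM. Hapln1 was high in TRAP mut library 6, at 187.5 CPM, next to 60.3 CPM in library 4. Acan did not meet the mark in TRAP het or mut, where 2 of 8 libraries were high in each.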

How the results depend on the processing

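No paired analysis was made, because the labels do not say which TRAP and pre-TRAP libraries came from the same pool. If some did, the libraries in the TRAP against pre-TRAP fit are not all independent. Of 787 alternative values of single genes, 731 kept their direction and their side of the threshold, 5 lost a call, 13 gained one and 38 changed sign, none of the last among called values. In TRAP against pre-TRAP the number of genes called lower was 5 to 7 in every alternative, 6 to 7 with 1 library left out, and none was called higher. In the main fit 31.2% of all genes were called lower, and the shares of most alternatives are not given here. DESeq2 gave no adjusted p for Acan and Hapln1 there. Acan was also called with no filter on low counts (-1.29) and with limma voom (-2.70).

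Between experiments in TRAP, no filter on low counts added 1 gene called higher, Matn4, and 2 genes, Cnmd and Acan, were lower without the 4 libraries; with 1 library left out it was 1 to 2. In pre-TRAP the number lower was 2 with limma voom, 0 with total counts or all 24 libraries in 1 fit, and 0 to 1 with 1 library left out. The number of pairs that passed with a positive r was 10 in all 16 TRAP libraries. With the adjustment over that set 4 pairs passed in pre-TRAP, 1 of them with a negative r. Pairs that passed with a positive r in pre-TRAP were 3 with DESeq2's size factors and 2 with total counts. Pairs with a negative r were not counted under these 2 scalings. The lowest r in pre-TRAP was then -0.83 and -0.84, and with total counts it was -0.85 in the 12 TRAP libraries.

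Signs changed for values that were not called. For mut over het in TRAP, Acan was 0.36, Matn1 0.39, Matn4 -0.46, Hapln1 -0.36 and Cnmd -0.011 in 1 experiment alone. Matn1 was 0.031 with total counts, 0.062 with no experiment covariate and 0.010 in the fit of all 24. With 1 library left out Acan ran from -1.51 to 0.55, Matn1 from -0.48 to 0.25, Hapln1 from -0.40 to 0.39 and Cnmd from -0.035 to 0.29. For mut over het in pre-TRAP, 1 experiment alone gave 0.028 for Matn1, -0.042 for Matn4 and -0.025 for Cnmd, and with 1 library left out Matn1 ran from -0.15 to 0.11 and Cnmd from -0.030 to 0.42. Between experiments in pre-TRAP, total counts gave 0.0074 for Matn1 and 0.059 for Hapln1. Comp was -5.8e-05 with DESeq2's size factors and -8.4e-04 with its Wald test, and ran from -0.32 to 0.22 with 1 library left out. The causes were not tested. Depth limited Comp, with 15 counts in 1 TRAP library.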
